A study of Mus musculus with 6 samples.

Results

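The genes described are 9 enzymes and carriers of mitochondrial fatty acid beta-oxidation, Cpt1a, Cpt2, Slc25a20, Acadm, Acadl, Acadvl, Hadha, Hadhb and Etfdh. They were taken by gene symbol from an expression table of 55736 genes, each symbol was found once, and all 9 reached 1 TPM in 3 or more of the 6 libraries, as did the 12440 genes tested. TPM is a transcript level corrected for gene length and scaled to the same total in every library. The 6 libraries are RNA sequencing of wild-type mouse bone marrow-derived macrophages, 3 from cells given 200 ng/ml lipopolysaccharide (LPS, the endotoxin of Gram-negative bacteria) for 24 h and 3 from control cells of the same time point. A second number, 500, stands unexplained in the titles of the LPS libraries. The study is about the chemokine CCL7, macrophage polarization and rheumatoid arthritis. The labels do not say whether the libraries of a group came from separate cultures or animals, so each p-value reflects the scatter among these 6 libraries alone, and that scatter may be technical.

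Beta-oxidation is the mitochondrial breakdown of fatty acids to acetyl-CoA. Long-chain fatty acids are first joined to coenzyme A in the cytosol and then carried through the mitochondrial membranes as carnitine esters. In the matrix each round of the cycle runs through an acyl-CoA dehydrogenase, a hydratase, a hydroxyacyl-CoA dehydrogenase and a thiolase, and electrons taken by the dehydrogenases pass through electron transfer flavoprotein and its oxidoreductase to ubiquinone. In macrophages the pathway is best known as a fuel route of cells alternatively activated with interleukin 4, while LPS-activated macrophages are known for a shift to glycolysis.

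LPS-treated macrophages held less transcript of 7 of the 9 genes, at 0.406 to 0.541 times the control level. The values of the 9 genes summed to 309, 322 and 322 TPM in LPS libraries, against 583, 596 and 570.0 TPM in control libraries, which is 0.545 times the control mean. Etfdh, the link to ubiquinone, stood at the lowest ratio, and Acadvl, the very-long-chain acyl-CoA dehydrogenase, was the gene whose LPS and control libraries overlapped. In 78.6% of all tested genes the groups did not overlap either, and this share stands beside each such statement on a single gene below. Tested with limma across the 12440 genes on log2(TPM + 1), with an adjusted p under 0.05 as the limit for a call, 8 of the 9 genes were lower with LPS, 0 were higher, and Acadvl did not pass. On that scale 59.8% of all tested genes were called lower, 16.3% were called higher and 76.1% were called in either direction. The median log2 change of the 9 genes was −1.02, beside −0.44 over all tested genes. In bulk RNA, fewer cells that carry a transcript and less of it per cell cannot be told apart.

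**Figure D1:**
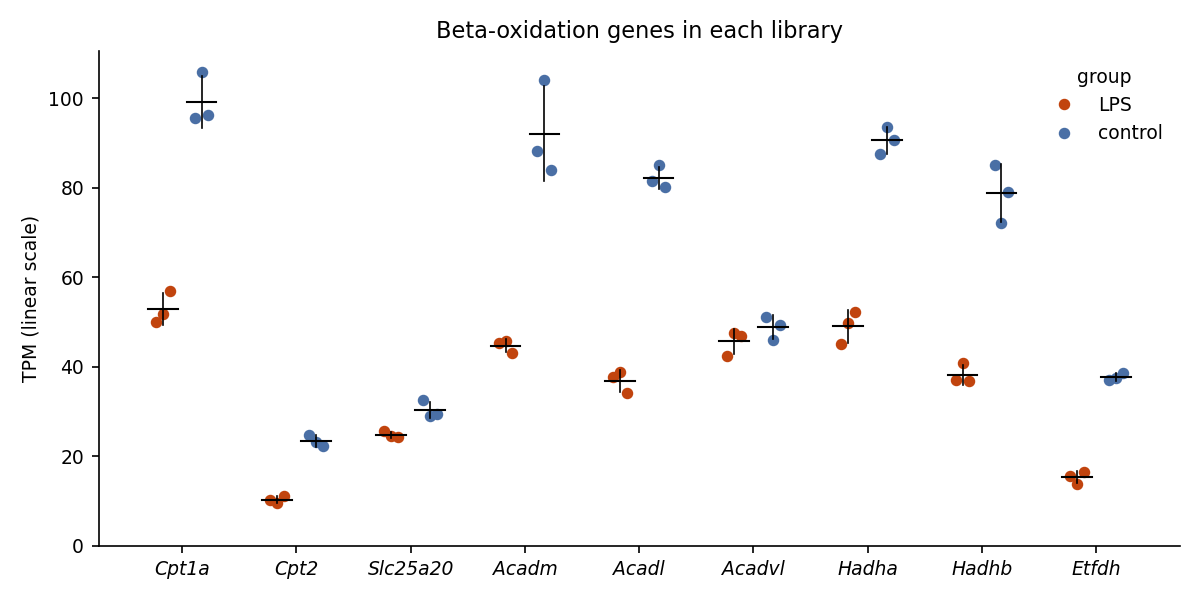
TPM of the 9 beta-oxidation genes on a linear axis, with 1 point per library (LPS left, control right), the mean as a horizontal bar and the SD as a vertical bar (n = 3 per group). The LPS and control points are apart for 8 genes and overlap for Acadvl (LPS 42.4 to 47.6 TPM, control 46.0 to 51.2 TPM). The groups are apart in 78.6% of all tested genes.

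TPM adds up to the same total in each library, and a pair of very abundant genes took more of that total in LPS libraries. Saa3, an acute-phase protein gene, and Fth1, the ferritin heavy chain gene, together made up 17.1% to 18.0% of TPM in LPS libraries and 1.93% to 2.12% in control libraries. With both left out of the total, the median over all tested genes was −0.22. The change of each gene is therefore also given with median-of-ratios scaling, in which the library factors were set from the tested genes so that the typical gene did not change. With that scaling the median over all tested genes was 0.0010, 33.6% of genes were called lower and 33.5% higher. Under it 7 of the 9 beta-oxidation genes were lower, Slc25a20 and Acadvl were higher, and the median log2 change of the 9 was −0.53. The 7 genes were Cpt1a, Cpt2, Acadm, Acadl, Hadha, Hadhb and Etfdh, and they were called lower in all 18 settings of scaling, filter, pseudocount, model and left-out library that were run.

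**Figure D2:**
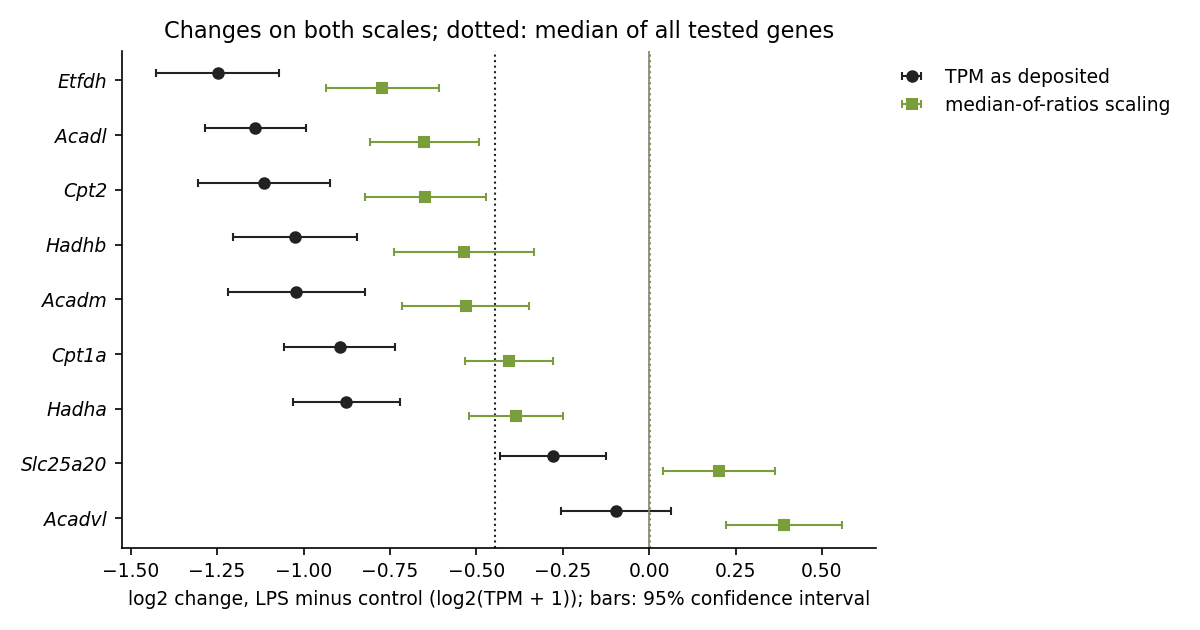
Log2 change, LPS minus control, of the 9 genes from limma on TPM as deposited (black circles) and after median-of-ratios scaling (green squares), with 95% confidence intervals and dotted lines at the median change of all 12440 tested genes. The 7 upper genes lie below 0 on both scales, and Slc25a20 and Acadvl lie above 0 after scaling.

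In the carnitine shuttle, both carnitine palmitoyltransferases were lower with LPS and the direction of the carrier between them depended on scaling. Cpt1a (ENSMUSG00000024900, chr19:3322334-3385733, plus strand, GRCm38), the outer-membrane enzyme that makes acylcarnitine and the regulated entry step, had 50.1, 51.7 and 56.8 TPM in LPS libraries, against 95.6, 106 and 96.2 TPM in control libraries. All LPS libraries were below all control libraries, and the log2 change was −0.90 (SE 0.0674, limma adjusted p = 1.50e-05), or −0.41 after median-of-ratios scaling (adjusted p = 0.000469). Cpt2 (ENSMUSG00000028607, chr4:107903981-107923610, minus strand), the inner-membrane enzyme that returns the acyl group to coenzyme A, had 10.3, 9.48 and 11.1 TPM in LPS libraries, against 24.8, 23.1 and 22.3 TPM in control libraries. Its groups were also apart, with a log2 change of −1.11 (SE 0.0809, limma adjusted p = 1.25e-05) and of −0.65 after scaling (adjusted p = 0.000208).

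Slc25a20 (ENSMUSG00000032602, chr9:108662088-108684641, plus strand) encodes the carnitine-acylcarnitine translocase, which exchanges acylcarnitine for carnitine across the inner membrane. It had 25.6, 24.6 and 24.2 TPM in LPS libraries, against 32.5, 29.0 and 29.5 TPM in control libraries. The groups did not overlap on TPM, but the direction depended on scaling: the log2 change was −0.28 on TPM as deposited (SE 0.0649, limma adjusted p = 0.00571) and 0.20 after median-of-ratios scaling (adjusted p = 0.0345). Without Saa3 and Fth1 in the total it was −0.037 (adjusted p = 0.628). On TPM as deposited its change lay 0.17 above the median of all tested genes, at their percentile 60.2.

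Of the 3 chain-length acyl-CoA dehydrogenases, the medium-chain and long-chain enzymes were lower with LPS and the very-long-chain enzyme did not pass the test. Acadm (ENSMUSG00000062908, chr3:153922357-153944632, minus strand), the medium-chain dehydrogenase, had 45.4, 45.7 and 43.1 TPM in LPS libraries, against 88.2, 104 and 84.0 TPM in control libraries. Every LPS library was below every control library. The log2 change was −1.02 (SE 0.0834, limma adjusted p = 2.33e-05), and −0.53 after median-of-ratios scaling (adjusted p = 0.000741). Acadl (ENSMUSG00000026003, chr1:66830839-66863277, minus strand), the long-chain dehydrogenase, had 37.7, 38.7 and 34.1 TPM in LPS libraries, against 81.6, 85.0 and 80.2 TPM in control libraries. It was lower in 3 of 3 LPS libraries than in any control library, with a log2 change of −1.14 (SE 0.0618, limma adjusted p = 2.72e-06) and of −0.65 after scaling (adjusted p = 0.000116).

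Acadvl (ENSMUSG00000018574, chr11:70010183-70015411, minus strand) opens the cycle for the longest chains at the inner membrane. It had 42.4, 47.6 and 46.9 TPM in LPS libraries, against 51.2, 46.0 and 49.4 TPM in control libraries. LPS libraries 2 and 3 lay above control library 2, and the log2 change of −0.10 (95% confidence interval −0.26 to 0.062, limma adjusted p = 0.226) did not pass. After median-of-ratios scaling it was 0.39 (adjusted p = 0.00215), and without the mitochondrial and ribosomal protein genes it was −0.19 (adjusted p = 0.0348). On TPM as deposited it lay 0.35 above the median of all tested genes, at their percentile 70.0. Of its 2686 annotated exon bases, 1151 (42.9%) are shared with exons of Dvl2 on the opposite strand, and no source used here says whether the counting used strand. Dvl2, named after its values were seen, had 6.75 ± 0.831 TPM in LPS libraries and 22.1 ± 1.86 TPM in control libraries (SD, n = 3 each). How reads from the shared bases were assigned was not tested.

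The dehydrogenase genes include genes that were lower and the gene that did not pass, so the 250 bases before their RefSeq transcript starts are shown (GRCm38.p6, each on the minus strand, written 5′ to 3′). Capitals mark the letters AGGTCA (the core half-site of nuclear receptors such as PPAR, RXR and ERR) or its reverse complement, GCATGCGC (the core of the NRF1 motif), and GGGCGG (the GC box) or its reverse complement. Acadm is from chr3:153944644-153944893, Acadl from chr1:66863310-66863559 and Acadvl from chr11:70015429-70015678.
Acadm: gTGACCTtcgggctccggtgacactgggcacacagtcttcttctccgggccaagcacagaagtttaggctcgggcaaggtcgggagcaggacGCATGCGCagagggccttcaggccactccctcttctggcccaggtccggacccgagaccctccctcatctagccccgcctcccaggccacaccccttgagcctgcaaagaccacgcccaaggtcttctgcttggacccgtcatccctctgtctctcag
Acadl: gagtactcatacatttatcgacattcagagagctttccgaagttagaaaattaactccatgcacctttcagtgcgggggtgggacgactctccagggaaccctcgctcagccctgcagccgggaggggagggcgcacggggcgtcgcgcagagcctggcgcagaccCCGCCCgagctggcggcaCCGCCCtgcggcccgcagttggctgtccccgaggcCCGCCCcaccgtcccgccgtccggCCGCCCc
Acadvl: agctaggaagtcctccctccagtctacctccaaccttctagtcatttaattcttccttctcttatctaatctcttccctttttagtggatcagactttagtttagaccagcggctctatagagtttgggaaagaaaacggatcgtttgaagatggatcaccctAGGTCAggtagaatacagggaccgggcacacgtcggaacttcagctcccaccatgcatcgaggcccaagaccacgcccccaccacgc
The Acadm window holds 1 nuclear receptor half-site, 1 NRF1 core and 12 CpG. The Acadl window holds 4 GC boxes and 25 CpG, and the Acadvl window holds 1 half-site and 9 CpG. The letters of the half-site occur in 14.0% of all mouse promoter windows of this length. Whether any of these letters bear on the changes with LPS was not tested.

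Over all 9 genes, AGGTCA occurred on either strand in 3 windows (Cpt1a, Acadm and Acadvl), and in 14.0% of the 32851 RefSeq promoter windows of the same length in the mouse. GGGCGG occurred in 6 of the 9 (32.7% of all windows), GCATGCGC in 2 (Acadm and Etfdh, 2.26%), the ETS letters CCGGAAG in 2 (Cpt2 and Slc25a20, 6.91%) and CCAAT in 2 (Cpt1a and Etfdh, 33.8%). The Hadha window (chr5:30154981-30155230) and the Hadhb window (chr5:30155003-30155252) overlap over most of their length, so their GC boxes are not independent counts. All 250 bases of the Etfdh window lie in annotated exons, as do 182 bases of the Hadha window and 165 of the Hadhb window. The TATA letters TATAAA, which 12.4% of all windows hold, occurred in 0 of the 9. A pair of AGGTCA half-sites 1 base apart, the form bound by PPAR with RXR, was in 0 of the 9 windows and in 0.0335% of all, and the ERR letters TCAAGGTCA were in 0 of the 9 and in 0.387% of all. Both of these contain AGGTCA. A match is a string of letters in a short window and not a bound site, and no match says only that the letters are not in that window.

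The subunits of the mitochondrial trifunctional protein were lower together. This complex carries the hydratase, the long-chain hydroxyacyl-CoA dehydrogenase and the thiolase steps for long chains. Hadha (ENSMUSG00000025745, chr5:30118304-30155162, minus strand), the alpha subunit with the hydratase and dehydrogenase activities, had 45.0, 49.8 and 52.2 TPM in LPS libraries, against 87.6, 93.7 and 90.7 TPM in control libraries. The log2 change was −0.88 (SE 0.0657, limma adjusted p = 1.48e-05), and −0.39 after median-of-ratios scaling (adjusted p = 0.000828). Hadhb (ENSMUSG00000059447, chr5:30155248-30184593, plus strand), the beta subunit with the thiolase activity, had 37.0, 40.8 and 36.8 TPM in LPS libraries, against 85.1, 72.2 and 79.1 TPM in control libraries. Its log2 change was −1.02 (SE 0.0754, limma adjusted p = 1.34e-05), and −0.54 after scaling (adjusted p = 0.00115). For both subunits every LPS library was below every control library.

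Hadha and Hadhb stand head to head, with 272 bases between their RefSeq transcript starts. The 85 bases that no annotated exon covers (chr5:30155163-30155247, GRCm38.p6, plus strand as read from Hadha to Hadhb) are shown because they lie between these starts, with GC boxes in capitals.
Hadha-Hadhb: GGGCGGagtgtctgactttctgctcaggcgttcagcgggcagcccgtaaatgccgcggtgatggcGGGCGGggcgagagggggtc
The stretch holds 9 CpG and 2 GC boxes and none of the other letters searched.

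Etfdh (ENSMUSG00000027809, chr3:79603788-79629500, minus strand) encodes the oxidoreductase that passes electrons from electron transfer flavoprotein to ubiquinone, which all acyl-CoA dehydrogenases of the matrix use. It had 15.6, 13.9 and 16.6 TPM in LPS libraries, against 37.0, 37.6 and 38.7 TPM in control libraries. The LPS values were all below the lowest control value, at 0.406 times the control mean. Its log2 change of −1.25 (SE 0.0756, limma adjusted p = 4.83e-06) was the lowest of the 9 genes, at percentile 15.1 of all tested genes, and it was −0.77 after median-of-ratios scaling (adjusted p = 5.94e-05). Of its 7505 annotated exon bases, 278 (3.70%) are shared with 4930579G24Rik on the opposite strand, while the deposited gene length is 2377 bases. That gene, named after its values were seen, had 1.49 ± 0.166 TPM in LPS libraries and 21.6 ± 2.83 TPM in control libraries (SD, n = 3 each). No source used here says whether the counting used strand, and how reads from the shared bases were assigned was not tested.

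The order of the 9 levels differed between the groups mainly through Acadvl and Slc25a20. In LPS libraries Cpt1a (52.9 ± 3.52 TPM), Hadha (49.0 ± 3.67), Acadvl (45.6 ± 2.82) and Acadm (44.7 ± 1.40) came first, and each neighbour overlapped the next in its range (SD, n = 3 for each). Hadhb (38.2 ± 2.25) and Acadl (36.8 ± 2.41) followed and overlapped each other, and Slc25a20 (24.8 ± 0.721), Etfdh (15.3 ± 1.36) and Cpt2 (10.3 ± 0.800) were each apart from the next. In control libraries Cpt1a (99.2 ± 5.73), Acadm (92.1 ± 10.6) and Hadha (90.6 ± 3.05) overlapped, then came Acadl (82.3 ± 2.49) and Hadhb (78.8 ± 6.44), which overlapped. Acadvl (48.9 ± 2.63), Etfdh (37.7 ± 0.868), Slc25a20 (30.3 ± 1.90) and Cpt2 (23.4 ± 1.30) were each apart from the next. Acadvl thus ranked above Acadm, Hadhb and Acadl with LPS and below them in control, and Slc25a20 ranked above Etfdh with LPS and below it in control. Among all tested genes the mean levels of the 9 stood between percentiles 44.2 and 80.9 in LPS libraries and between percentiles 55.5 and 88.1 in control libraries.

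Ratios of genes within a library are the same under any scaling by 1 factor per library, such as median-of-ratios or upper-quartile but not quantile normalization, and 5 were compared on TPM as deposited. Acadvl over Acadm was 0.934, 1.04 and 1.09 in LPS libraries, against 0.580, 0.442 and 0.588 in control libraries. Acadl over Acadvl was 0.888, 0.814 and 0.727 in LPS libraries, against 1.59, 1.85 and 1.62 in control libraries, so the balance of the long-chain and very-long-chain dehydrogenases lay on opposite sides of 1. Cpt1a over Cpt2 averaged 5.15 ± 0.290 in LPS libraries and 4.25 ± 0.370 in control libraries (SD, n = 3 each). These 3 ratios did not overlap between groups, and each had p = 0.1 in an exact two-sided permutation test, the smallest that 3 against 3 libraries allow, and an adjusted p of 0.167 over the 5 ratios, so none passed. The log2 differences were 0.94 for Acadvl over Acadm, −1.06 for Acadl over Acadvl and 0.28 for Cpt1a over Cpt2. After quantile normalization the log2 changes were −0.65 for Cpt1a and −0.59 for Cpt2, so Cpt1a was then no longer the less lowered of this pair.

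In the other 2 ratios the groups overlapped. Hadha over Hadhb averaged 1.29 ± 0.116 in LPS libraries and 1.16 ± 0.134 in control libraries (SD, n = 3 each, exact two-sided permutation p = 0.4). Acadl over Acadm averaged 0.823 ± 0.0289 in LPS libraries and 0.899 ± 0.0723 in control libraries (SD, n = 3 each, exact two-sided permutation p = 0.3). A p of this size does not show that the ratios are alike in both groups. Set against the geometric mean of the 9 genes in the same library, Acadvl was higher by 0.78 and Slc25a20 by 0.59 on the log2 scale in LPS than in control libraries. The other 7 genes lay between −0.42 (Etfdh) and −0.01 (Hadha) on that measure.

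**Figure D3:**
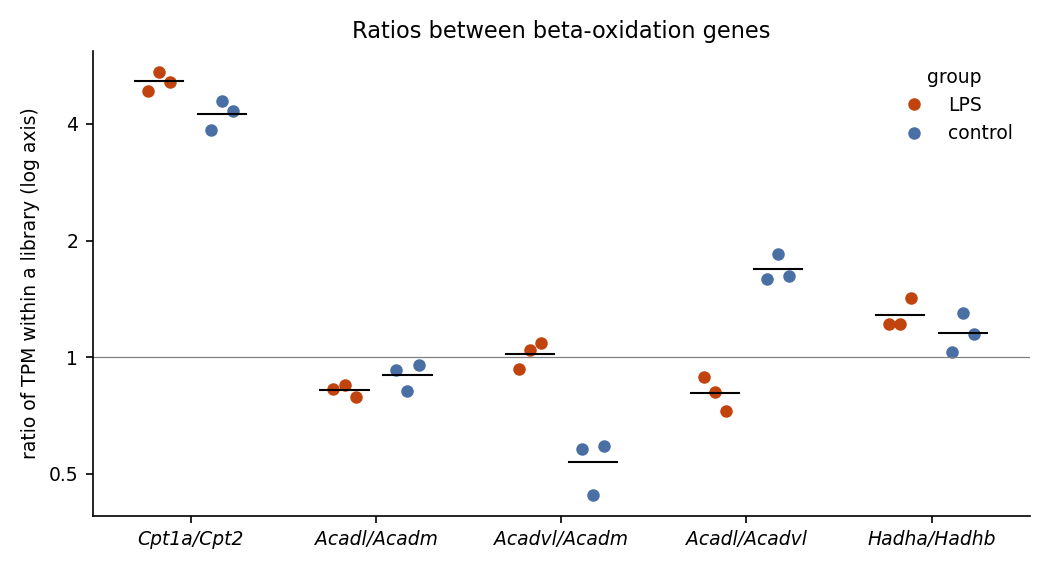
Ratio of TPM between pairs of beta-oxidation genes within each library on a log axis, with 1 point per library (LPS left, control right) and the group mean as a bar. The 3 LPS points of Acadvl over Acadm lie between 0.934 and 1.09, above all control points, and the groups of Hadha over Hadhb overlap.

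The 3 genes outside the lists used here whose log2(TPM + 1) profile over the 6 libraries, after centring, was nearest to the mean profile of the 9 were Arhgap9 (Euclidean distance 0.0530), Bub3 (0.0546) and Ddx19a (0.0576), out of 12292 candidates. Arhgap9 averaged 61.1 ± 0.335 TPM in LPS libraries and 111 ± 0.424 TPM in control libraries (SD, n = 3 each). The distances of the 9 genes themselves to their mean profile ran from 0.148 for Hadha to 0.941 for Acadvl.

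The other mitochondrial enzymes listed with the pathway went in both directions. The list was not limited to fatty acid oxidation and includes Ivd of leucine breakdown. Of 18 such genes, all of them tested, 12 were lower with LPS, 2 were higher and 4 did not pass, with a median log2 change of −0.67 (after median-of-ratios scaling 9 were lower and 5 higher). Beside this, 59.8% of all tested genes were lower and 16.3% higher, with a median of −0.44. After scaling these shares were 33.6% and 33.5%. Hadh, the short-chain hydroxyacyl-CoA dehydrogenase, had 22.5, 19.5 and 22.1 TPM in LPS libraries, against 64.0, 70.2 and 69.6 TPM in control libraries, a log2 change of −1.63 (limma adjusted p = 1.01e-06). Acads, the short-chain dehydrogenase, averaged 23.3 ± 2.52 TPM in LPS libraries and 48.7 ± 3.46 TPM in control libraries (SD, n = 3 each; log2 change −1.03, limma adjusted p = 3.40e-05). Acaa2, a thiolase, averaged 24.0 ± 0.719 TPM in LPS libraries and 49.8 ± 3.72 TPM in control libraries (SD, n = 3 each; log2 change −1.02, limma adjusted p = 7.67e-06). Also among the largest changes were Acad12 (log2 change −1.54), Decr1, a dienoyl-CoA reductase for unsaturated chains (−1.13), and Ivd, the isovaleryl-CoA dehydrogenase of leucine breakdown (−1.11).

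At other steps the calls differed from those of Hadh and Acads. Echs1, the short-chain hydratase, averaged 57.4 ± 0.764 TPM in LPS libraries and 60.3 ± 4.29 TPM in control libraries (SD, n = 3 each; log2 change −0.07, limma adjusted p = 0.339), and was higher by 0.42 after scaling (adjusted p = 0.00108). Hsd17b10, a short-chain hydroxyacyl-CoA dehydrogenase, averaged 78.6 ± 2.84 TPM in LPS libraries and 73.5 ± 5.25 TPM in control libraries (SD, n = 3 each; log2 change 0.10, limma adjusted p = 0.197), with 0.59 after scaling (adjusted p = 0.000235). The 2 genes that were higher on TPM as deposited were Eci1 and Eci2, the enoyl-CoA isomerases for unsaturated chains, named here after their values were seen (log2 changes 0.40 and 0.35, limma adjusted p = 0.000701 and 0.00121). Etfa and Etfb, the subunits of the flavoprotein that Etfdh oxidises, were lower by 0.56 and 0.48 on TPM as deposited, and after scaling they did not pass (log2 changes −0.07 and 0.01). Etfdh thus lay further below its control level than the carrier subunits that feed it, though that difference was not tested.

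In the carnitine and malonyl-CoA group, 8 of 11 genes were tested, 5 were lower with LPS, 0 were higher and 3 did not pass, with a median log2 change of −0.68 (4 lower and 1 higher after scaling). The shares over all tested genes were 59.8% lower and 16.3% higher, with a median of −0.44 (33.6% and 33.5% after scaling). Crot, the peroxisomal carnitine octanoyltransferase, averaged 10.1 ± 0.711 TPM in LPS libraries and 26.8 ± 0.967 TPM in control libraries, and Crat, the carnitine acetyltransferase, averaged 35.2 ± 2.05 TPM in LPS libraries and 74.1 ± 5.88 TPM in control libraries (SD, n = 3 each). Slc22a5, the plasma-membrane carnitine transporter, had a log2 change of −0.86 (limma adjusted p = 0.000383). Malonyl-CoA inhibits the enzyme that Cpt1a encodes. Mlycd, which degrades malonyl-CoA, averaged 5.77 ± 1.29 TPM in LPS libraries and 13.8 ± 0.549 TPM in control libraries (SD, n = 3 each; log2 change −1.14, limma adjusted p = 0.000180). Acaca, which makes it, averaged 6.98 ± 0.437 TPM in LPS libraries and 10.2 ± 1.06 TPM in control libraries (log2 change −0.49, and −0.044 after scaling with adjusted p = 0.673). The other isoforms Cpt1b and Cpt1c and the mitochondrial carboxylase gene Acacb averaged under 1 TPM in both groups and were not tested.

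Upstream of the carnitine shuttle, the uptake gene Cd36 was lower and the acyl-CoA synthetase gene Acsl1 was higher. Among 26 genes of fatty acid uptake, binding and activation, 22 were tested, 14 were lower, 5 were higher and 3 did not pass, with a median log2 change of −0.73 (11 lower and 7 higher after scaling). Among all tested genes 59.8% were lower and 16.3% higher, with a median of −0.44 (33.6% and 33.5% after scaling). Acsl1, a long-chain acyl-CoA synthetase, had 415, 456 and 433 TPM in LPS libraries, against 26.6, 29.6 and 27.3 TPM in control libraries, which is 15.6 times the control mean (log2 change 3.92, limma adjusted p = 1.27e-08). Measured within a library, Acsl1 over Cpt1a averaged 8.24 ± 0.598 in LPS libraries and 0.281 ± 0.00291 in control libraries (SD, n = 3 each), a ratio chosen after the values were seen and not tested. The other 4 that were higher, named after their values were seen, were the synthetases Acsl5 (log2 change 1.57) and Acsl4 (0.43), the binding protein gene Fabp3 (1.74) and the thioesterase gene Acot7 (0.87). Cd36, a fatty acid translocase and scavenger receptor, averaged 172 ± 7.77 TPM in LPS libraries and 604 ± 42.9 TPM in control libraries, and the binding protein gene Fabp5 averaged 262 ± 21.4 TPM in LPS libraries and 708 ± 53.3 TPM in control libraries (SD, n = 3 each). Fabp4, another binding protein gene, had a log2 change of −2.68, and Acss1, a mitochondrial acetyl-CoA synthetase gene, of −2.07. The value for Acot1, a cytosolic thioesterase gene (log2 change −2.84), is uncertain, because Acot2 is a near-identical neighbour and no source used here says how shared reads were divided.

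Peroxisomal beta-oxidation shortens very long and branched chains, and the list used for it here also held genes of alpha-oxidation. The list held 18 genes, and of the 15 tested 12 were lower with LPS, 2 were higher and 1 did not pass, with a median log2 change of −0.77 (10 lower and 3 higher after scaling). For comparison, 59.8% of all tested genes were lower and 16.3% higher, with a median of −0.44 (33.6% and 33.5% after scaling). The largest changes were in the oxidase gene Acox3 (log2 change −1.50), Hacl1 of alpha-oxidation (−1.45), the transporter gene Abcd2 (−1.33) and Hsd17b4, the bifunctional enzyme gene (−0.95). The most abundant were the sterol carrier and thiolase gene Scp2, with 184 ± 2.41 TPM in LPS libraries and 325 ± 20.1 TPM in control libraries, and the thiolase gene Acaa1a, with 212 ± 4.14 TPM in LPS libraries and 145 ± 8.91 TPM in control libraries (SD, n = 3 each). Acaa1a was one of the genes that were higher (log2 change 0.55, limma adjusted p = 6.41e-05) and has the close paralog Acaa1b, so its value is uncertain. Phyh of alpha-oxidation, named after its values were seen, was the other (0.29).

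**Figure D4:**
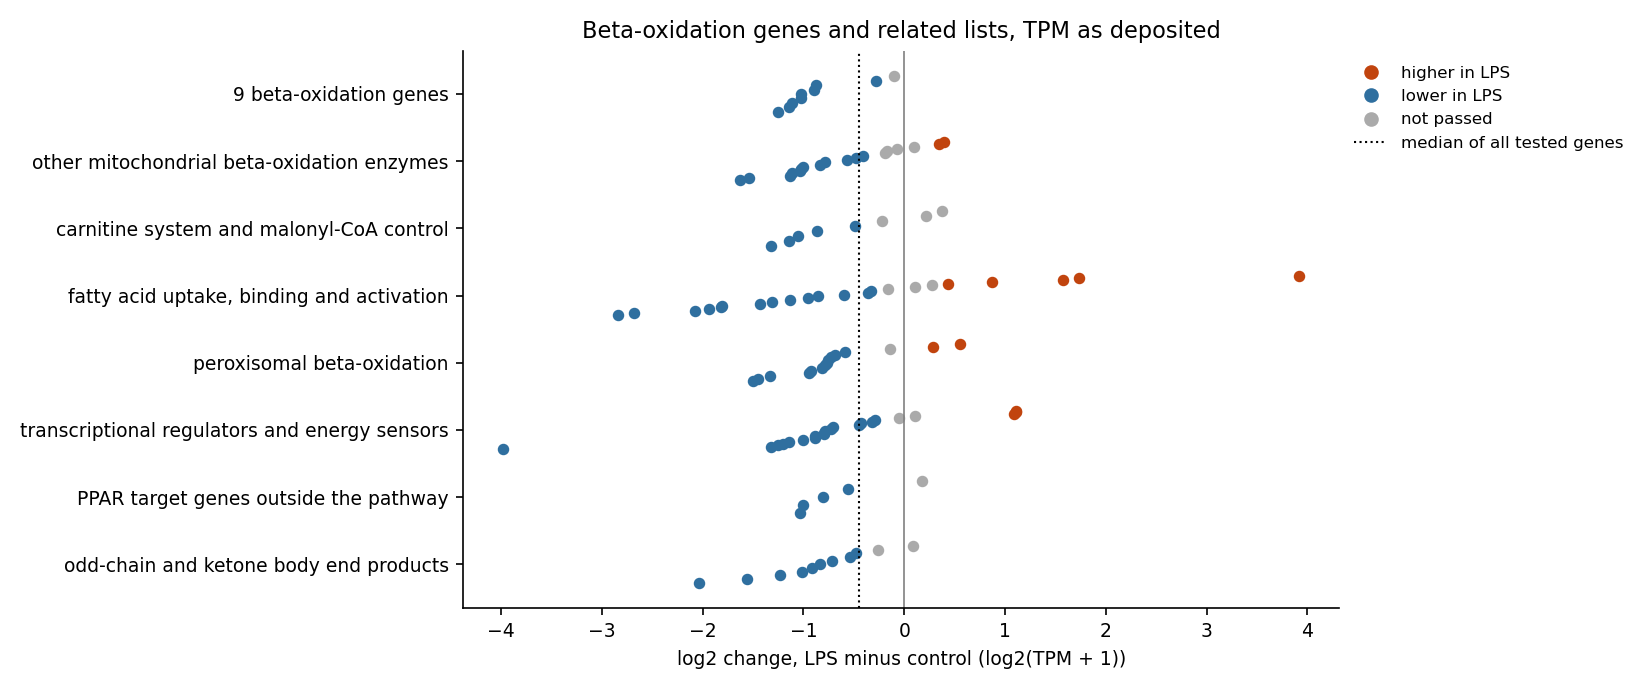
Log2 change, LPS minus control, of every tested gene in the 9 beta-oxidation genes and 7 related lists on TPM as deposited, coloured by call, with a dotted line at the median of all 12440 tested genes (−0.44). Most lists lie mainly to the left, while uptake, binding and activation reaches from −2.84 (Acot1) to 3.92 (Acsl1).

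The transcription factors known to drive these genes in liver and muscle went in different directions. Pparg, the nuclear receptor of lipid storage that is also known in alternatively activated macrophages, had 0.55, 1.23 and 0.38 TPM in LPS libraries, against 23.5, 29.5 and 24.0 TPM in control libraries, a log2 change of −3.98 (limma adjusted p = 1.47e-06) and of −3.63 after scaling. Ppara, the receptor that drives fatty acid oxidation in liver, was listed at 0 in all 6 libraries. Ppard averaged 18.2 ± 1.20 TPM in LPS libraries and 22.9 ± 1.77 TPM in control libraries (SD, n = 3 each), with a log2 change of −0.32 on TPM as deposited (limma adjusted p = 0.00930) that turned to 0.16 after scaling (adjusted p = 0.0852). Esrra, which encodes the orphan receptor ERR alpha, had 57.2, 58.3 and 62.5 TPM in LPS libraries, against 27.7, 25.4 and 28.1 TPM in control libraries (log2 change 1.10, limma adjusted p = 3.75e-06). Its coactivator gene Ppargc1b averaged 3.43 ± 0.354 TPM in LPS libraries and 1.06 ± 0.144 TPM in control libraries (SD, n = 3 each; log2 change 1.10, limma adjusted p = 0.000104), and Ppargc1a was under 1 TPM on average in both groups and was not tested.

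Of the 25 regulators and energy sensors, 22 were tested, 17 were lower, 3 were higher and 2 did not pass, with a median log2 change of −0.76, and after scaling 11 were lower and 6 higher. All tested genes together were 59.8% lower and 16.3% higher, with a median of −0.44 (33.6% and 33.5% after scaling). Beside Esrra and Ppargc1b, the gene called higher was Pprc1, a coactivator of the PGC-1 family named after its values were seen (log2 change 1.09, limma adjusted p = 0.00176). Tfeb, a lysosomal and lipid-catabolism factor gene, Sirt3, a mitochondrial deacetylase gene, and Sirt1, a nuclear deacetylase gene, had log2 changes of −1.32, −1.26 and −1.20 (limma adjusted p = 4.58e-06, 7.71e-05 and 2.99e-05). Among the most abundant was Stk11, the kinase LKB1 upstream of AMPK (log2 change −0.79).

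Known PPAR targets outside the pathway and the end products of the cycle were also measured. Of 12 such PPAR targets 5 were tested, 4 were lower with LPS, 0 were higher and 1 did not pass (3 lower and 1 higher after scaling). Ucp2, an uncoupling protein gene, averaged 579 ± 29.2 TPM in LPS libraries and 1160.1 ± 36.8 TPM in control libraries (SD, n = 3 each), and Angptl4, an inhibitor of lipoprotein lipase, had a log2 change of −1.03 (limma adjusted p = 0.00375). Plin2, a lipid droplet coat gene, was lower by 0.55 on TPM as deposited and did not pass after scaling (−0.06), and Txnip had a log2 change of −0.81. Of 11 measured odd-chain and ketone body genes, 9 were lower, 0 were higher and 2 did not pass, with a median log2 change of −0.83 (6 lower and 0 higher after scaling). Beside both lists, 59.8% of all tested genes were lower and 16.3% higher, with a median of −0.44 (33.6% and 33.5% after scaling). Oxct1, which opens the use of ketone bodies, had 34.9, 33.0 and 33.5 TPM in LPS libraries, against 138, 143 and 144 TPM in control libraries (log2 change −2.04, limma adjusted p = 4.72e-08). Pccb, a propionyl-CoA carboxylase subunit gene, had a log2 change of −1.56, and Hmgcs1, the cytosolic HMG-CoA synthase gene, of −1.23.

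**Figure D5:**
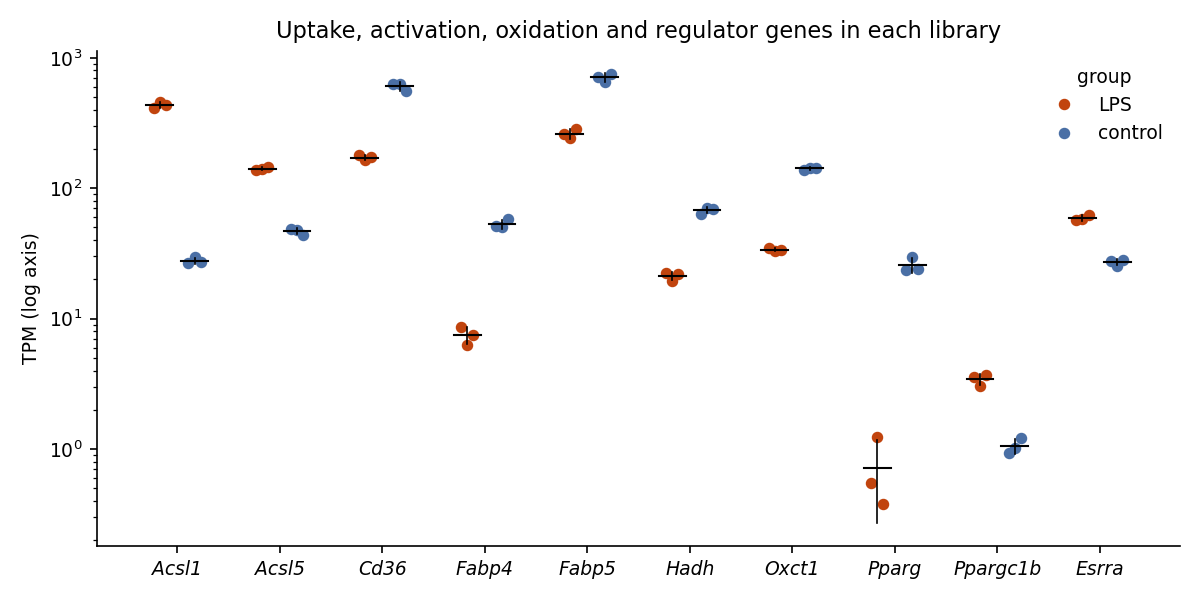
TPM of 10 genes around the pathway on a log axis, with 1 point per library (LPS left, control right), the mean as a horizontal bar and the SD as a vertical bar (n = 3 per group). Acsl1, Acsl5, Ppargc1b and Esrra are higher in LPS libraries, and Cd36, Fabp4, Fabp5, Hadh, Oxct1 and Pparg are lower.

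The libraries were checked for their cell type and for other signals that moved with treatment. All 12 macrophage identity genes passed the level filter, and their sum ran from 36714 to 39244 TPM in LPS libraries and from 28608 to 30196 TPM in control libraries, with 6 genes higher and 6 lower on TPM as deposited, and 6 higher and 3 lower after median-of-ratios scaling. The 13 mitochondrially encoded mRNAs summed to 20859 to 22140 TPM in LPS libraries and 47385 to 51815 TPM in control libraries, which is 0.433 times the control mean beside 0.545 times for the 9 beta-oxidation genes. The part of that difference in the beta-oxidation values was not tested. The 15 neutrophil markers summed to 222 to 244 TPM in LPS libraries and 67.6 to 73.3 TPM in control libraries, while 4 of them, Ly6g, Prtn3, Retnlg and Stfa2l1, were listed at 0 in all 6 libraries. Of the 15, 10 were under 1 TPM in all 6 libraries, those 4 included, and 4 others passed the level filter. The 8 B cell markers summed to 0.51 to 1.56 TPM in LPS libraries and 57.7 to 63.1 TPM in control libraries, nearly all from Ighm. The 12 stromal and adipocyte markers summed to 7.78 to 8.90 TPM in LPS libraries and 5.71 to 7.45 TPM in control libraries, and the adipocyte genes Adipoq and Lep were at 0 in all 6. T and NK cell markers summed to 0.57 to 1.51 TPM in LPS and 0.91 to 3.46 TPM in control libraries, and dendritic cell markers to 10.5 to 13.7 TPM in LPS and 13.6 to 18.0 TPM in control libraries. Erythroid and megakaryocyte markers summed to 158 to 164 TPM in LPS and 196 to 205 TPM in control libraries, and mast cell and basophil markers to 2.73 to 3.35 TPM in LPS and 1.93 to 2.89 TPM in control libraries. Of the 11 erythroid and megakaryocyte markers, 9 were under 1 TPM in all 6 libraries and 1 passed the level filter. The log2 change of that gene was −0.32 on TPM as deposited and 0.18 after median-of-ratios scaling. Of the 8 mast cell and basophil markers, 7 were under 1 TPM in all 6. Exact two-sided permutation tests of the marker sums and the mitochondrial sum gave adjusted p of 0.15 to 0.3 over 9 sums, so none passed. The smallest unadjusted p that 3 against 3 libraries allow is 0.1. The part of these cell types in the beta-oxidation values was not tested. The groups did not overlap in 78.6% of all tested genes, and among the 9 beta-oxidation genes they did not overlap in 8.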

How the data were processed

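The values are TPM per gene as deposited by the authors in a table of the whole series, with 3 LPS and 3 control libraries. No source used here names the tool behind the TPM values, its annotation or its strand setting. Bowtie 0.12.2 and the builds mm8 and mm9 appear in the submitters' processing notes without a role. TPM keeps no read depth, so depth is unknown and no counting error can be given. Coordinates come from GENCODE M21 (GRCm38), which held 52081 (93.4%) of the gene identifiers; promoter sequences come from RefSeq (GRCm38.p6), which held all 9 genes.

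The 12440 genes that reached 1 TPM in 3 or more libraries were tested two-sided on log2(TPM + 1) with limma 3.58.1 (R 4.3.3; lmFit, eBayes with trend), as LPS over control. P-values were adjusted by Benjamini and Hochberg over these genes, and calls were made under 0.05. The pseudocount of 1 understates changes of low genes. The code was tested on simulated data. Single ratios and sums were compared by exact permutation tests over libraries (Python 3.11.15, scipy 1.17.1). The alternatives were 3 other scalings (median-of-ratios, upper-quartile, quantile), leaving Saa3 and Fth1 or the mitochondrial and ribosomal protein genes out of the total, pseudocounts of 0.1 and 5, no filter and a filter of 5 TPM, no trend, a replicate block, and each library left out. Named genes were the 9, the 4 called genes with the largest change and the 2 most abundant in each related list, and a fixed set of regulators and isoforms; Saa3 and Fth1 were named for their share of TPM. Some genes that this rule names are not reported here. The 9 genes and all lists were chosen with earlier results of these data known. Of 229 listed symbols 1 was absent, as the older name of a listed gene.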

Additional observations from a re-analysis of the deposited data

How the results depend on the processing

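The counts over all tested genes depended on scaling. With median-of-ratios, upper-quartile and quantile scaling, 4167, 3716 and 4029 genes were called higher with LPS, against 2028 on TPM as deposited, and 4181, 4451 and 4257 were called lower, against 7441. Of the 9 beta-oxidation genes 2, 1 and 1 were called higher under these scalings, against 0. Slc25a20 turned to 0.20 (adjusted p = 0.0345), 0.14 (0.148) and 0.15 (0.118), and without Saa3 and Fth1 in the total it was −0.037 (0.628). Acadvl turned to 0.39 (0.00215), 0.33 (0.0134) and 0.25 (0.0158), and to 0.15 without Saa3 and Fth1 (0.0830), and it was called lower, at −0.19 (0.0348), without the mitochondrial and ribosomal protein genes. The causes were not tested. Cpt1a, Cpt2, Acadm, Acadl, Hadha, Hadhb and Etfdh were called lower under each of the 17 alternatives, with log2 changes between −1.34 (Etfdh) and −0.39 (Hadha). After median-of-ratios scaling, calls higher were 5 for the other mitochondrial enzymes, 1 for the carnitine group, 6 for the regulators (11 lower) and 1 for the PPAR targets. Leaving out each library in turn changed no call among the 9. Same-numbered libraries deviated with correlations of 0.074, −0.15 and 0.076, and not every library correlated best with its own number. These values show no pairing by number. With 3 libraries per group they cannot exclude that same-numbered libraries share an animal or culture. With the replicate block 9297 tested genes were called, against 9469, and 8 of the 9 genes were lower. TPM gives no depth, so what depth would limit cannot be stated.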
